A study of Homo sapiens with 35 samples.

Results

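Contacts with the nuclear lamina were examined at 10 haematopoietic and myeloid genes, MYB, KIT, RUNX1, GATA2, SPI1, CEBPA, MPO, CD34, LMO2 and FLI1. The genes were located by their positions in the human genome build hg19. The table has a value for every 100-kb stretch of the genome, called a bin. For each gene the bin that holds its position (the gene's bin) was described apart from the 5 bins on each side, which reach about 0.5 Mb away and are called its surroundings. This gave 10 gene's bins and 100 surrounding bins of the 26584 bins with a value in every cell, and all 110 had values. The cells were sorted from KBM7, a line derived from a human chronic myeloid leukaemia, and belong to its clone 5-5, labelled diploid (2N). All cells form 1 group. Every cell carried the bacterial adenine methylase Dam fused to lamin B1, and Fucci cell-cycle reporters. The fusion was switched on with 0.5 nM Shield1 for 15 h, and small cells positive for both reporters (the smallest 2%) were sorted singly. It is 1 clone, with no untreated cells, no cells with unfused Dam and no second cell type in the table. RNA was not measured, so the text says nothing of which genes were active. Labels list 35 cells, and 32 had a column.

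The lamina is a mesh of filament proteins under the inner nuclear membrane. Large parts of the genome lie against it, and these parts are typically poor in genes and in transcription, whereas many active genes lie away from it. Blood formation is steered by transcription factors that act in stem and progenitor cells. Among the 10 genes, RUNX1, GATA2, FLI1, MYB and the adaptor LMO2 act in stem and progenitor cells, while SPI1 (PU.1) and CEBPA direct myeloid differentiation. KIT is the receptor of stem cell factor, CD34 is a surface glycoprotein of progenitors, and MPO is myeloperoxidase, an enzyme of neutrophil granules.

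Dam marks the A of GATC, and DpnI cuts only the marked sites, so reads start at GATC and nowhere else. The bases just before the transcription start are shown for the gene whose neighbourhood had the most contact, MYB, and for the one with the least, GATA2 (5 genes tied at 0, and GATA2 had the lowest signal of these). They are shown because a read can begin in them only where they hold GATC. Each is 250 bases long, is given 5′ to 3′ from RefSeq (GRCh38.p14), and would have GATC in capitals. RefSeq has 2 starts for GATA2.
MYB, chr6:135181058-135181307, plus strand: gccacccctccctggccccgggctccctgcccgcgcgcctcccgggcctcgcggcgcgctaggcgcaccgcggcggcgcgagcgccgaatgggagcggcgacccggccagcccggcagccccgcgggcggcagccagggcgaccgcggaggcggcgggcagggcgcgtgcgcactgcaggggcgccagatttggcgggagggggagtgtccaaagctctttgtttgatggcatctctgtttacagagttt
GATA2, chr3:128493202-128493451, minus strand: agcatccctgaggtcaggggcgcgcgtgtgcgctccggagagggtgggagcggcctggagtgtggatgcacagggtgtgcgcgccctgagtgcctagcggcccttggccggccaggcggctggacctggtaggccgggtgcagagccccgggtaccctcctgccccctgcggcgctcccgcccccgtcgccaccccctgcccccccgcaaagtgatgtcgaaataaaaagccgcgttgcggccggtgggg
GATA2, chr3:128488531-128488780, minus strand: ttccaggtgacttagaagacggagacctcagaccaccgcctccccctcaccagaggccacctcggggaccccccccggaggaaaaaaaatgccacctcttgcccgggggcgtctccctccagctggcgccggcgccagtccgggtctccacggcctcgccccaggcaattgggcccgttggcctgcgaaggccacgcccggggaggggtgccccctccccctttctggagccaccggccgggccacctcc
No GATC, which reads the same on both strands, occurs in these stretches. The RefSeq table had entries for 6 of the 10 genes (MYB, KIT, RUNX1, GATA2, CEBPA and CD34), 7 stretches in all. None of the 7 held GATC, and their G and C content was 61.6 to 81.2%. Of all 35116 stretches of the same length and place, 35.8% held it. This says only that the letters are missing in these windows.

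The deposited values are ratios of observed to expected reads (OE) per bin and cell, and an OE of 1 or more counted as lamina contact of that bin in that cell. Neither the chromosome copy nor the moment within the 15 h can be told from a call. Reads recovered from the steps of the values were 40279 to 258225 in 29 cells, where 1 read gave a median OE of 0.0940 to 0.605. In the other 3 cells (13, 15 and 17) reads were 985 to 1755, and 1 read gave a median OE of 13.7 to 24.9, so any read counted as a contact there and contact was called in few bins. Averaged over all bins, 26.3% ± 8.08 of a cell's bins were in contact (SD, n = 32), and 28.6% ± 3.99 in the 29 deeper cells.

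None of the 10 gene's bins was in contact with the lamina in any of the 32 cells. A count of 0 of 32 cells allows a contact frequency of up to 9.38% by the limit of 3 counts. The exact two-sided 95% Clopper-Pearson interval reaches 10.9%. Both limits count the 3 shallow cells in full, although only 3.51 to 5.99% of their bins were in contact, and would be wider without them. From the cells' own shares 8.42 cells were expected for a bin at random. Each of the 10 bins was therefore called in contact less often than the cells' shares predict (exact two-sided Poisson-binomial test, p = 9.61e-05, adjusted p = 0.000146 by Benjamini-Hochberg over 26584 bins). The background is high. Of all bins, 54.5% were called in the same direction and 42.0% were in contact in no cell, against 10 of 10 gene's bins in each case. The 10 genes were chosen with results of these data known, and no test over them as a list was made.

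The signal in the gene's bins was close to nothing in single cells. The median OE over the 32 cells was 0 at every gene. Any read at all was found in 1 cell at GATA2, 2 cells each at SPI1 and CD34, 3 each at MYB, RUNX1, CEBPA and MPO, 4 each at LMO2 and FLI1, and 8 at KIT. The median bin of the table had a read in 13 cells. The highest OE of any cell was 0.116 at MYB, 0.195 at CD34, 0.199 at RUNX1, 0.228 at GATA2, 0.254 at CEBPA and 0.268 at SPI1. It was 0.349 at MPO, 0.394 at LMO2, 0.425 at FLI1 and 0.647 at KIT, all from cells of the deeper 29. Only the value at KIT exceeded 0.5. The mean OE was 0.00713 ± 0.0403 at GATA2 and 0.0547 ± 0.130 at KIT (SD, n = 32), with the other genes between them. The median over the 10 gene's bins was 0.0146, against 0.0218 for all bins never in contact and 0.236 for all bins.

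The surroundings split the genes into 2 kinds. At RUNX1, GATA2, SPI1, CEBPA and MPO all 11 bins of the window, the gene's bin with its surroundings, were in contact in no cell, and at LMO2 1 bin was in contact in 1 cell. At MYB, CD34, FLI1 and KIT, 6 to 8 of the 10 surrounding bins were in contact in at least 1 cell. Over all 100 surrounding bins, 71 were never in contact, 86 were called lower than the cells' shares predict and 3 were called higher, against 54.5% lower and 30.3% higher over all bins. The 3 higher bins all lay beside MYB, and the 11 uncalled bins lay beside MYB, CD34 and FLI1.

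**Figure D1:**
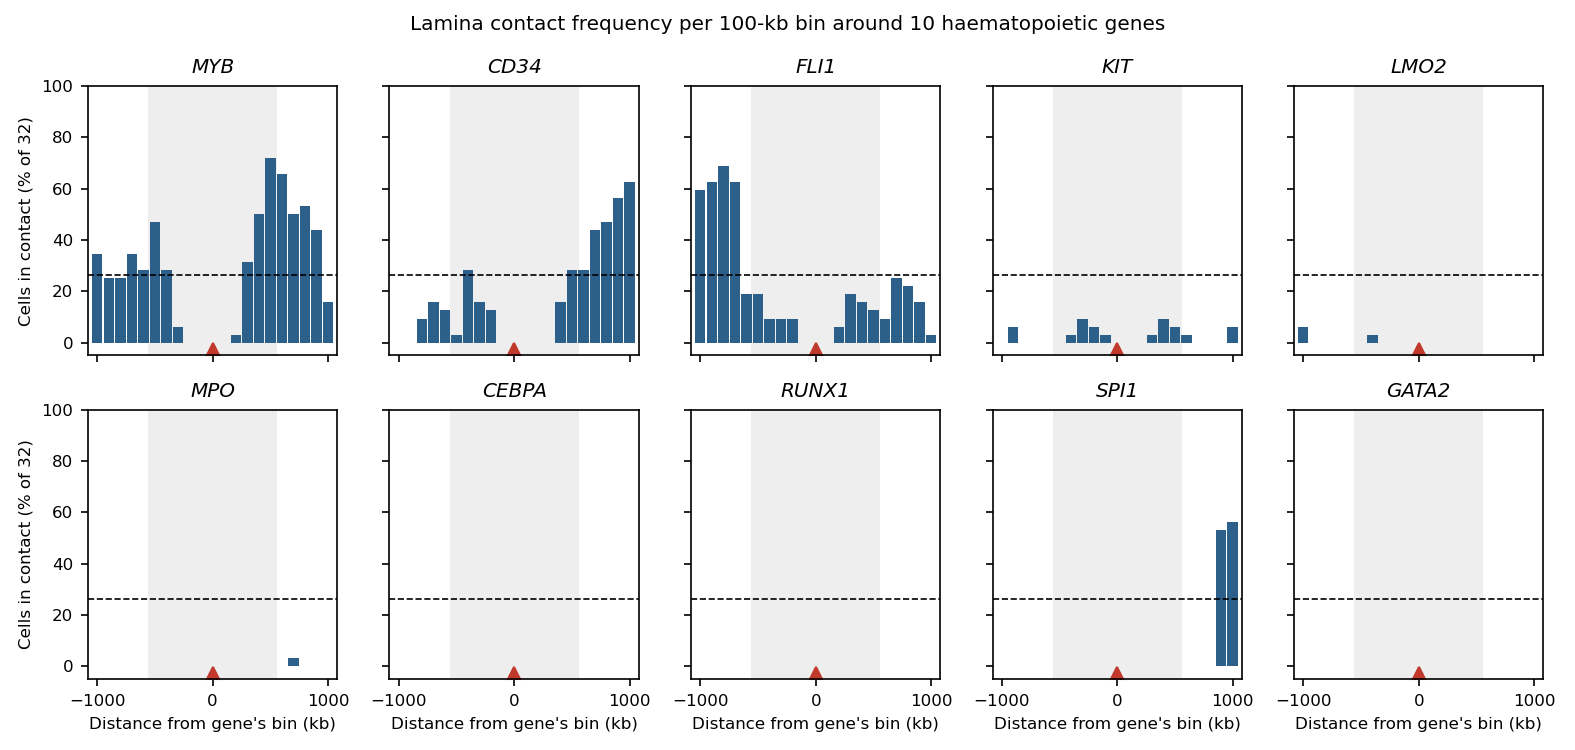
Share of the 32 cells in contact (percent) in each 100-kb bin from 1000 kb before to 1000 kb after the gene's bin, 1 panel per gene, with the gene's bin marked by a triangle, its window in grey and the mean over all bins (26.3%) as a dashed line. The bin under the triangle is at 0 in every panel, and at MYB, CD34, FLI1 and KIT contacted bins stand on both sides of it.

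Among the transcription factors, MYB had the most contact in its neighbourhood. The gene is 37.9 kb long (RefSeq, GRCh38.p14), lies between HBS1L and AHI1 in gene order, and is required for progenitor growth. Its window (chromosome 6, 135000001 to 136100000) had 21.6% ± 16.8 of bins in contact (SD, n = 32), from 0 through a median of 18.2% to 54.5% in single cells. That was not separated from the contact shares of the same cells (difference of -4.73 points, sign-flip permutation test over 32 cells with 100000 resamples, adjusted p = 0.0860, lower in 18 cells and higher in 14), whereas 54.6% of all windows were called lower. MYB's window passed as lower with an OE limit of 2 (adjusted p = 0.00557), with OE in place of contacts (0.00242) and without bins of low expected reads (0.00728), within a range of 0.00242 to 0.436 over 8 alternatives, and its difference turned to 2.03 points with any read counted and to 2.84 points with 10 bins on each side.

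Positions are given along the chromosome, so that before and after mean lower and higher coordinates. Within that window MYB itself sat in a gap of 4 bins (135300001 to 135700000) that was free of contact in every cell. The bin 500 kb before it (135000001 to 135100000) was in contact in 15 cells, with an OE from 0 through a median of 0.830 to 3.81. The bin 500 kb after it (136000001 to 136100000) was in contact in 23 of 32 cells, or 71.9% (95% Clopper-Pearson interval 53.3 to 86.3%), with an OE from 0 through 1.48 to 5.43. The gene's own bin reached an OE of 0.116 at most, with 29 of 32 cells at 0. Contact fell off toward the gene on either side, to 2 cells at 300 kb before it and 1 cell at 200 kb after it.

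The gap at MYB was seen inside single cells and not only in the average. In 26 of 32 cells at least 1 surrounding bin was in contact, and in 15 of these cells bins on both sides were, with the gene's bin out of contact between them. The contact share of the surroundings was 23.8% ± 18.5 (SD, n = 32), against 0% in the gene's bin, lower in 26 of 32 cells and higher in none (sign-flip permutation test, p = 1e-05, the smallest that the resamples can give, adjusted p = 0.000154). Of all bins, 14.6% were called lower than their surroundings and 8.78% higher. A gene's bin at 0 in every cell can differ only downward, so the direction carries no information. The p-value then rests only on how many cells had contact in the surroundings, and it does not measure the size of the difference. The same holds for every gene's bin compared in this way by contacts at an OE of 1. The side after MYB had more contact than the side before it, 31.3% ± 24.3 against 16.3% ± 17.9, larger in 17 cells and smaller in 3 (sign-flip permutation test, adjusted p = 0.00284). By contacts at an OE of 1 with 5 bins a side, MYB was the only one of the 10 genes called for a difference between sides, and 19.6% of all bins were called in the same direction and 19.6% in the other. In OE in place of contacts LMO2 was called too, with less signal after the gene (0.0221 against 0.0578, sign-flip permutation test, adjusted p = 0.0222, the lowest of its alternatives). In OE, 25.2% of all bins were called in that direction. MYB's own call was lost with any read counted (sign-flip permutation test, adjusted p = 0.0569) and with an OE limit of 2 (0.115), the highest values over its 8 alternatives.

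**Figure D2:**
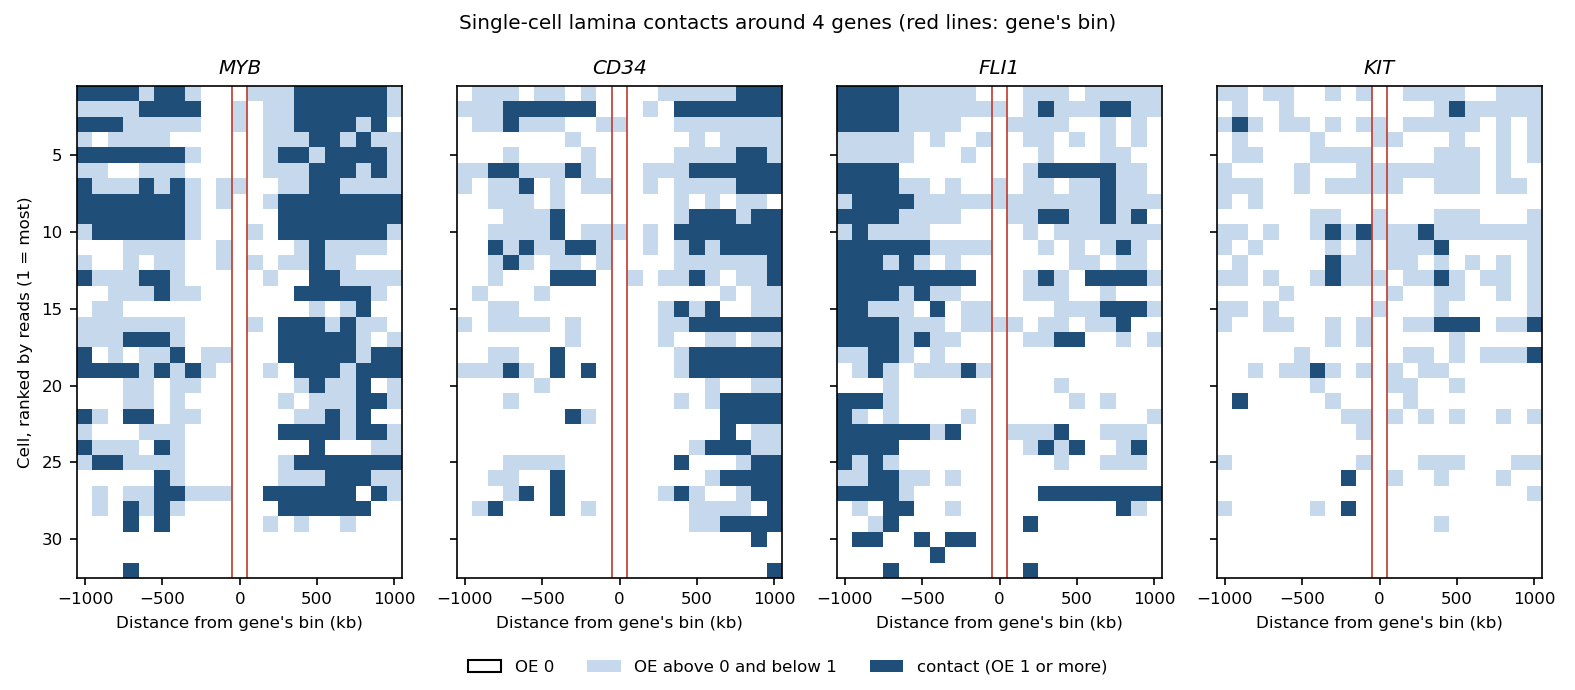
OE in single cells around MYB, CD34, FLI1 and KIT, with 1 row per cell from the most reads (top) to the fewest, and the distance from the gene's bin in kb along the bottom. White is an OE of 0, pale blue an OE above 0 and below 1, and dark blue a contact. The column between the red lines, the gene's bin, holds no contact in any of the 32 cells. Within MYB's window, the gene's bin with its surroundings, dark bins lie on both sides of the gene's bin in 15 cells. Bins beyond the window are not part of that count.

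FLI1, an ETS factor of stem cells and the megakaryocyte line, lay in a gap of 3 bins (chromosome 11, 128500001 to 128800000). The gene spans 128.1 kb and so exceeds a bin, and its neighbours in order are ETS1, another ETS factor, and KCNJ1. Its window had 9.09% ± 12.0 of bins in contact (SD, n = 32), from 0 through 4.55% to 45.5%, a difference of -17.2 points from the shares of the same cells, lower in 25 of 32 (sign-flip permutation test, adjusted p = 1.39e-05). The call was not kept with any read counted (adjusted p = 0.245) or with 10 bins on each side (0.109), the highest of 9 alternatives. The surroundings had 10.0% ± 13.2 in contact against 0% in the gene's bin, lower in 16 of 32 cells (sign-flip permutation test, adjusted p = 0.000541). The shallow cells held 5 of the 32 contacts of this window. Without them the window had 8.46% ± 12.1 in contact (SD, n = 29), and the surroundings had 9.31% (sign-flip permutation test, adjusted p = 0.00181).

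Contacts around FLI1 were scattered over cells. No bin of its window was in contact in more than 6 cells. The sides differed by 1.25 points (adjusted p = 1), with contact before the gene only in 6 cells, after it only in 7 and on both sides in 3. Frequent contact began further away, at 700 to 1000 kb before the gene, where 19 to 22 cells were in contact per bin.

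RUNX1, GATA2, SPI1 and CEBPA lay inside long stretches that no cell touched. RUNX1, at 262 kb the longest of the 10 genes and so only partly inside its bin (chromosome 21, 36300001 to 36400000), lay in a stretch of 5.5 Mb (33600001 to 39100000). GATA2 (chromosome 3, 128200001 to 128300000) lay in 3.8 Mb. SPI1 (chromosome 11, 47300001 to 47400000) lay in 4.5 Mb, and CEBPA (chromosome 19, 33700001 to 33800000) in 7.4 Mb. Their windows were below the cells' shares in 32 of 32 cells each (sign-flip permutation test, adjusted p = 1.39e-05). A window with no contact is below the share of every cell. The direction and the p-value therefore follow from the absence of contact and add nothing to it. Of all windows, 54.6% were called lower and 18.3% had no contact in any bin. Mean OE in the surroundings was 0.00753 ± 0.0153 at GATA2, 0.0137 ± 0.0202 at CEBPA, 0.0203 ± 0.0305 at SPI1 and 0.0218 ± 0.0365 at RUNX1 (SD, n = 32). GATA2's bin was among the bins of low expected reads, of which 70.5% were never in contact. Without such bins, too few surrounding bins were left at SPI1 and CEBPA to compare them with the gene's bin. With 5 bins a side and no contact in any of them, contacts give no difference between the gene's bin and its surroundings at these 4 genes. In OE in place of contacts the bins did not pass as different from their surroundings either (sign-flip permutation tests, adjusted p = 0.471 at RUNX1, 1 at GATA2, 0.685 at SPI1 and 0.923 at CEBPA, against 1 at each by contacts).

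The chromosomes of these genes differed. On chromosome 19, home of CEBPA, 85.9% of bins were never in contact and the mean share was 2.28%, so a bin without contact was the rule there. Chromosomes 21 and 3 had 41.6% and 36.7% of bins never in contact, and mean shares of 19.9% and 32.0%. SPI1 was near a sharp edge: its never-contacted stretch ended 900 kb after the gene, where the bin 48200001 to 48300000 was in contact in 17 cells with an OE from 0 through 1.28 to 6.15. The next bin was in contact in 18 cells, while the bin before the edge had no contact and an OE of at most 0.648. With 10 bins on each side, SPI1's bin was below its surroundings (5.47%) and the side after it above the side before (sign-flip permutation tests, adjusted p = 7.01e-05 and 3.25e-05, against 1 and 1 with 5 bins). At that width 25.3% of all bins were called below their surroundings, and 27.4% were called for more contact after than before.

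LMO2, a scaffold between transcription factors of stem and erythroid cells, was close to these. Its bin (chromosome 11, 33800001 to 33900000) lay in a never-contacted stretch of 3 Mb, and 1 bin 400 kb before it was in contact in 1 cell. The window share was 0.284% ± 1.61 (SD, n = 32), below the cell's share in 32 of 32 cells (sign-flip permutation test, adjusted p = 1.39e-05). LMO2, SPI1 and FLI1 share chromosome 11, and their neighbourhoods differed, from 9.09% at FLI1 through 0.284% at LMO2 to 0% at SPI1.

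KIT and CD34, the receptor and the surface glycoprotein, also lay in gaps, with less contact around them than MYB had. CD34 (chromosome 1, 208000001 to 208100000, between CD46 and PLXNA2 in gene order) was the second bin in a gap of 5 bins (207900001 to 208400000). Its window had 9.38% ± 13.4 of bins in contact (SD, n = 32), from 0 through a median of 0 to 54.5%, a difference of -16.9 points from the cells' shares, lower in 30 of 32 cells (sign-flip permutation test, adjusted p = 1.39e-05). The surroundings had 10.3% ± 14.7 in contact against 0% in the gene's bin, lower in 15 of 32 cells (sign-flip permutation test, adjusted p = 0.000356). This was lost with an OE limit of 2 (adjusted p = 0.382, the highest of 8 alternatives), where the surroundings were at 1.25%.

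In 9 cells CD34 had contact on both sides of its bin. The strongest bins in the window, at 400 kb before and 500 kb after the gene, were in contact in 9 cells each, with median OE of 0.186 and 0.277. Contact rose further out after the gene, to 20 cells at 1000 kb. The sides of the window did not pass as different (adjusted p = 0.605), and with 10 bins a side the side after CD34 was higher (28.1% against 9.69%, sign-flip permutation test, adjusted p = 6.00e-05). FLI1 went the other way at that width, with 31.9% before and 12.8% after the gene (sign-flip permutation test, adjusted p = 0.000112). Of all bins, 27.4% were called for more contact after and 27.2% for more before at that width.

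KIT (chromosome 4, 55500001 to 55600000, between PDGFRA and KDR, which also encode receptor tyrosine kinases) stood in a poorly contacted part of a chromosome with much contact, where the mean share was 41.5% and 22.1% of bins were never in contact. Its window had 3.69% ± 6.87 of bins in contact (SD, n = 32), from 0 through a median of 0 to 27.3%, a difference of -22.6 points from the cells' shares, lower in 32 of 32 cells (sign-flip permutation test, adjusted p = 1.39e-05). All 11 bins were called lower than the cells' shares predict. No bin was in contact in more than 3 cells, and contact occurred in 9 cells.

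KIT's gap of 3 bins (55500001 to 55800000) was the shallowest. Each of its ends was set by a bin in contact in 1 cell only, just over the limit. The highest OE was 1.035 in the bin before the gap and 1.029 in the bin after it. The surroundings had 4.06% ± 7.56 in contact against 0% in the gene's bin, lower in 9 of 32 cells (sign-flip permutation test, adjusted p = 0.0215, which as at MYB rests only on the number of such cells). The call was lost with an OE limit of 2, where the difference shrank to -0.625 points (adjusted p = 0.991). It was also lost with any read counted (-11.6 points, adjusted p = 0.303) and without the 8 cells with fewest reads (-4.58 points, 0.0675), where the difference was not smaller, within a range of 8.48e-05 to 0.991 over 8 alternatives. Of the 9 cells with contact in KIT's window, 8 also had contact in CD34's window, against 7 of the other 20 deeper cells. The 9 cells had a median of 152943 reads and a median contact share of 29.5%, and the 20 cells had 122160 reads and 26.4%. The part of depth in this was not tested, and the overlap, noticed in these data, has no test.

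MPO, the granule enzyme, resembled the factors of the first kind. Its bin (chromosome 17, 56300001 to 56400000) lay in a never-contacted stretch of 2.2 Mb, on a chromosome where 79.2% of bins were never in contact. The window was below the cell's share in 32 of 32 cells (sign-flip permutation test, adjusted p = 1.39e-05), which follows from a window with no contact. A bin 700 kb after the gene was in contact in 1 cell. That contact ended the stretch and came from a shallow cell, with an OE of 16.8. Without the shallow cells, an alternative added after seeing the data, the stretch was 4 Mb long (54800001 to 58800000), and the stretches of the other 9 genes kept their length. Mean OE in the surroundings was 0.0292 ± 0.0476 (SD, n = 32).

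In order of the share of the window in contact, the genes were MYB, CD34, FLI1, KIT and LMO2, followed by 5 genes at 0. Compared within cells, MYB exceeded CD34 by 12.2 points ± 17.1 (SD, n = 32), in 21 cells, with 6 cells the other way. CD34 and FLI1 differed by 0.284 points ± 15.4, with 10 cells one way and 11 the other. FLI1 exceeded KIT by 5.40 points ± 13.8, in 13 cells against 5, and KIT exceeded LMO2 by 3.41 points ± 7.21, in 9 cells against 1. The difference between CD34 and FLI1 was far inside the spread. At the other steps the mean difference was below the SD of single cells, which does not say whether the means differ, and no test of the order was made. The order held for this width and limit only. With 10 bins on each side FLI1 (21.3%) stood above CD34 (18.0%), and SPI1 (5.21%) above KIT (2.68%) and LMO2 (0.446%). With any read counted it was MYB at 46.6%, FLI1 at 39.8%, KIT at 35.5% and CD34 at 30.4%. The median window of the 10 genes was at 0.142%, against 14.2% for all 26315 windows tested, and only MYB was above the latter. Of all windows, 18.3% had no contact in any bin, and of the 11021 windows centred on a bin never in contact, 43.7%, against 5 of 10 here.

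**Figure D3:**
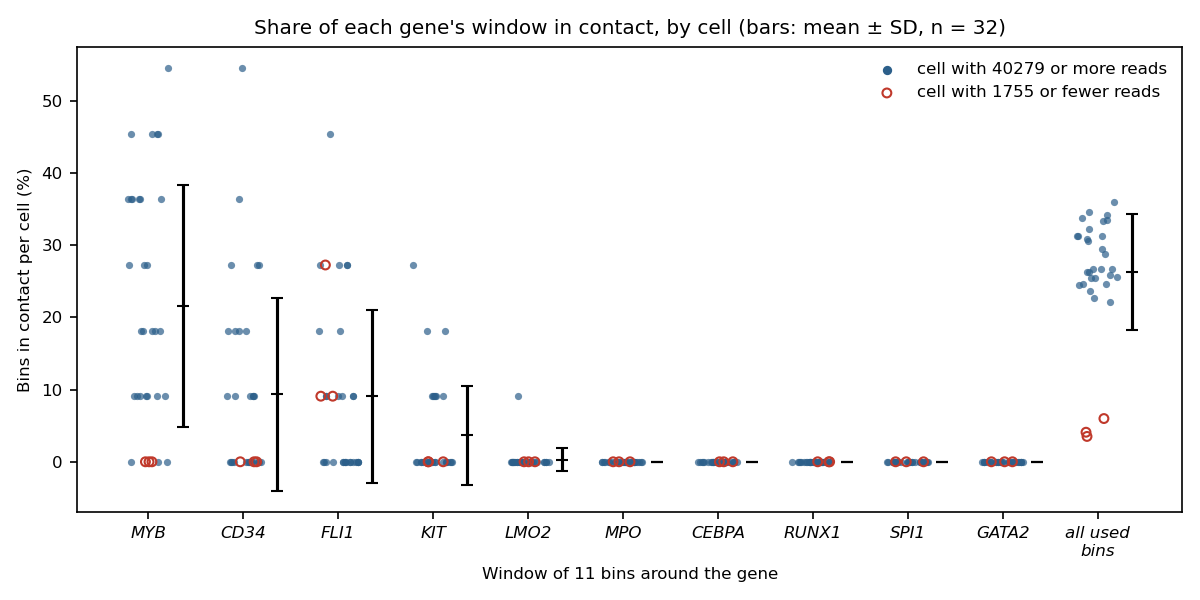
Share of the 11 bins of each gene's window in contact (percent), 1 point per cell, with the mean ± SD of 32 cells beside the points (bars may pass below 0, which no cell can) and, at the right, the share over all used bins of the same cells. Open circles are the 3 shallow cells. MYB's cells spread from 0 to 54.5%, and the 5 genes at the right of the gene order are at 0 in every cell.

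Single cells had contact in the windows of 0 to 4 of the 10 genes, with a median of 2. One cell had none, 10 cells had 1 gene, 10 had 2, 7 had 3 and 4 had 4. The 3 shallow cells held contacts in the window of FLI1 alone.

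The distance from a gene to frequently contacted chromatin ranged from 0.4 to 11.4 Mb. The nearest bin in contact in at least 50% of cells was 0.4 Mb from MYB, 0.7 Mb from FLI1 and 0.9 Mb from CD34 and SPI1. It was 2.5 Mb from LMO2, 2.8 Mb from KIT, 3.4 Mb from MPO, 4.3 Mb from RUNX1, 7.4 Mb from GATA2 and 11.4 Mb from CEBPA. The median of 2.65 Mb compares with 3.4 Mb over all bins never in contact, of which 19.3% lay within 1 Mb of such a bin, as did 4 of the 10 genes. Without the shallow cells the distance was 0.8 Mb at CD34, 2.6 Mb at KIT, 4.2 Mb at RUNX1, 7.3 Mb at GATA2 and 11.3 Mb at CEBPA. The other genes kept theirs. The gaps of 0.3 to 0.5 Mb at KIT, FLI1, MYB and CD34 were short among never-contacted bins, whose 25th percentile was 0.7 Mb and whose median was 1.9 Mb. KIT's length rests on bins in contact in 1 cell at either end. The median of the 10 genes was 2.6 Mb. Without the shallow cells it was 3.4 Mb, against 2 Mb over all bins never in contact in the remaining cells.

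**Figure D4:**
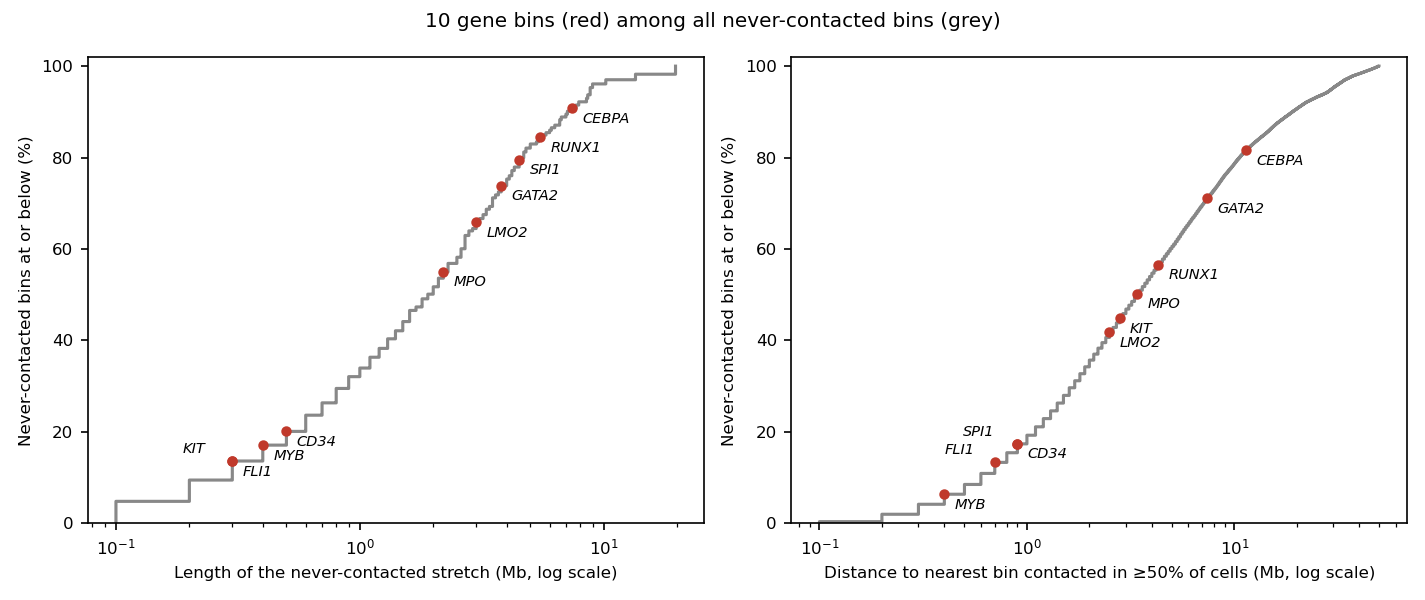
Length of the never-contacted stretch around a bin (left, Mb, log scale) and distance to the nearest bin in contact in at least 50% of cells (right, Mb, log scale), as the cumulative percentage over all never-contacted bins (grey line), with the 10 gene's bins in red. KIT and FLI1 share a point at 0.3 Mb on the left, CD34 and SPI1 share one at 0.9 Mb on the right, and the 10 genes spread over most of the range of never-contacted bins.

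MYB was compared further after its values were seen, as a description. Of the windows centred on such a bin, 3.49% had a contact share as high as MYB's or higher, and the median share was 0.284%. Of the never-contacted bins whose windows were tested, 20.2% were called lower than their surroundings, against 4 of the 10 gene's bins (MYB, CD34, FLI1 and KIT).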

How the data were processed

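Lamin B1 DamID was measured in single KBM7 cells. The authors deposited ratios of observed to expected reads per 100-kb bin, per the file headers. Cutadapt, Bowtie2 2.1.0 and the build hg19 are named, without their roles, in the submitters' processing notes. The source of the expected reads and the handling of duplicates are not given in the sources at hand. Samples 12, 14 and 16 were not analysed here. Per the labels' protocols, DpnI fragments were amplified with 21 extension steps, so reads are not independent molecules, and limits from counts cover counting error only.

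Reads per cell were recovered from the steps of the values (100% whole within 0.01 reads, which follows from the method). A cell is the replicate, and nothing says the cells came from separate cultures, so sign-flip p-values speak for these cells only. Where a gene's bin or a window had no contact in any cell, the differences never have opposite signs. The sign-flip p-value then does not measure their spread. The Poisson-binomial p-value instead compares a bin's count with draws at each cell's own contact share. It called 54.5% of all bins lower and 30.3% higher. The Poisson-binomial test doubled the smaller tail. Sign-flip permutation tests used differences within a cell. Each test ran over all bins with enough neighbours (8 of 11 bins in a window, 4 on a side), was adjusted by Benjamini-Hochberg at 0.05, and was tested on simulated data. All 10 genes of the rule are named. Genes, lists and tests were chosen with earlier results of these data known. Positions of RUNX1, GATA2 and FLI1 fall on a bin border, and the bin that starts there was used. RefSeq gave gene order, lengths and sequences on GRCh38.p14, whose coordinates were not used to place genes in bins, so a gene may reach into a neighbouring bin. Other haematopoietic genes were not analysed here, since no hg19 positions were at hand. Python 3.11.15, numpy, scipy, pandas and matplotlib were used.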

Additional observations from a re-analysis of the deposited data

How the results depend on the processing

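Alternatives were OE limits of 0.5, 2 and any read, fewer cells, fewer bins, the other bin at a border, 10 bins on each side, OE in place of contacts, and a sign-flip test for single bins. Of 382 recomputed values of the tests, 351 had the same outcome of the test and no opposite sign (a move from or to 0 was not counted as one) or, for counts, stayed within 1.5 times. These include the call of the gene's bin as lower for all 10 genes, 9 where bins of low expected reads were left out, since GATA2's bin was then lost. That alternative removed 3743 bins, of which 70.5% were never in contact. It gave no window value for GATA2 and CEBPA, no value against the surroundings for GATA2, SPI1 and CEBPA, and none between sides for these and CD34. Windows called lower were 8 to 10 of 10, and 8 of 8 without bins of low expected reads. Over the alternatives, 42.7 to 58.3% of all bins and 45.8 to 58.8% of all windows were called lower. Gene's bins below their surroundings numbered 4, 2 with an OE limit of 2, and 3 to 5 otherwise (4 of 7 without bins of low expected reads). Of all bins, 14.6% were called below their surroundings, 13.1% with a limit of 2, and 11.3 to 28.0% over the alternatives. Side differences were the least stable. The number of genes with more contact at higher positions was 1, and was 0 with any read or an OE limit of 2 and 3 with 10 bins a side. Of all bins, 19.6% were called in that direction, 21.7% with any read, 16% with a limit of 2 and 27.4% with 10 bins a side. The number of genes with less at higher positions was 0, and was 1 with 10 bins a side (FLI1) and 1 with OE in place of contacts (LMO2). Of all bins, 19.6% were called that way, 27.2% with 10 bins a side and 25.2% in OE.

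Values that changed sign were MYB's window (-4.73 points, to 2.03 with any read and 2.84 with 10 bins a side) and side differences of KIT, FLI1 and CD34. KIT's -0.625 points became 11.9 with any read, 6.88 with a limit of 0.5, 0.833 without the 8 cells with fewest reads and 0.0734 in OE. FLI1's 1.25 points became -1.88 with a limit of 2, -5 with the other bin, -19.1 with 10 bins a side and -0.107 in OE. CD34's -3.13 points became 18.4 with 10 bins a side. Windows of another width hold other bins. The cause of the other changes was not tested. No paired analysis was possible because there is 1 group and so no groups to pair; the sign-flip tests already compare values within a cell. In the deeper 29 cells, 1 read gave an OE of up to 0.605, so weak signal below a contact is resolved coarsely in the sparsest of them, and the 3 shallow cells could show a contact at few bins only.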
